A study of Homo sapiens with 24 samples.

Results

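The genes described here are 10 transcripts known as targets of the transcription factor p53 or grouped with them: CDKN1A, MDM2, GADD45A, GADD45B, TP53I3, PLK2, PLK3, GDF15, TP53INP1 and SESN1. They were taken by symbol from a table of estimated RNA-seq counts, after the version was dropped from each Ensembl identifier. All 10 were found among the 60232 genes of the table, and all 10 were among the 18379 genes with enough reads to be tested. The cells were 22Rv1, an established human prostate carcinoma line. They received the vehicle dimethyl sulfoxide (DMSO), the compound KB02 at 200 µM or the compound KB05 at 200 µM, with 3 biological replicates for each of the 3 groups. All 9 libraries are labelled 3 h in their titles, while the names of their count columns carry a 2 h tag. The design text describes compound exposure for 1 h before 2 h in fresh medium, and the tag was read as the latter. Another 15 samples of the series, collected at 8 h after treatment with different compounds or with vehicle, were not analysed here. All groups were grown from the same line, so the results describe 1 cell line only.

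p53 is a transcription factor that is held at a low level by the ubiquitin ligase MDM2 and accumulates when DNA is damaged, when ribosome assembly fails or under other stresses. It binds paired decamers in DNA and raises transcription of genes that stop the cell cycle, repair DNA, limit oxidants or start cell death. Several of its targets also have inputs that do not need p53. GDF15, a secreted cytokine of the TGF-beta superfamily that acts on the brainstem receptor GFRAL to reduce appetite, is known to be induced by ATF4, CHOP and EGR1 as well, and GADD45B is known as a rapid stress and cytokine response gene.

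Total counts ran from 17565188 to 19830340 in the DMSO libraries, from 17216760 to 21900548 with KB02 and from 15506975 to 19617207 with KB05. Levels below are depth-scaled counts (CPM, the count of a gene divided by the size of its library) after scaling of library sizes by trimmed mean of M values (TMM), and 3 counts, the upper limit that a count of 0 allows, equal 0.129 to 0.195 CPM in a library (counting error only). In bulk RNA, fewer cells that express a gene and less RNA per cell cannot be told apart. Markers of luminal prostate carcinoma cells had reads for 10 of 10 genes, with summed levels of 2700 to 3060 CPM in DMSO, 2460 to 2620 CPM with KB02 and 3170 to 3230 CPM with KB05. The keratins KRT8 and KRT18 made up most of these sums (means of 1060 and 719 CPM in DMSO). Singly, 6 of the 10 markers fell and 2 rose with KB02, and 2 fell and 5 rose with KB05. Of all genes tested, 23.3% were called lower and 22.8% higher with KB02, and 21.1% lower and 18.7% higher with KB05. The adhesion protein EPCAM averaged 169 CPM in DMSO, 62 with KB02 and 130 with KB05, the protease TMPRSS2 59.6, 23.5 and 34 CPM, and the surface antigen FOLH1 205, 112 and 183 CPM. Of 14 markers of other cells, 12 had reads in DMSO, 14 with KB02 and 12 with KB05, and their sums were 262 to 307, 166 to 182 and 230 to 254 CPM. VWF, an endothelial marker, and KRT5, a basal epithelial keratin, were at 0 in the DMSO and KB05 libraries, and most of the sum was SYP, a neuroendocrine vesicle protein. CD14, a monocyte marker, stood at 0.541 ± 0.249 CPM in DMSO, 8.80 ± 2.62 CPM with KB02 and 0.397 ± 0.269 CPM with KB05 (SD, n = 3). The other blood markers did not follow it. PTPRC stood at 14.2 ± 3.85, 9.67 ± 2.59 and 11.8 ± 0.59 CPM in the same order. CD3E averaged 0.581 to 0.727 CPM over the groups and CD79A 0.179 to 0.307 CPM. Reads of mitochondrially encoded protein genes took 13.8% to 15.4% of counts in DMSO, 11.2% to 12.3% with KB02 and 9.20% to 10.1% with KB05. Mitochondrial ribosomal RNA went the other way, at 3% to 3.3%, 3.74% to 3.84% and 4.29% to 4.74%. The groups thus differed in these shares and markers, and their part in the results below was not tested.

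Sequences upstream of the transcription start were read from RefSeq (GRCh38.p14) for 8 of the 10 genes, in 13 windows of 250 bases because some genes have several starts. No window was matched for GADD45A, and TP53INP1 was left out of the search. Both strands were searched for the p53 decamer and for a pair of adjacent p53 decamers. The pair had no spacer, and each decamer had its C at base 4, its G at base 7 and at most 1 other mismatch. The other motifs were AP-1 (TGANTCA), CRE (TGACGTCA), the CRE core (TGACG, part of the CRE), the ATF4-C/EBP composite (TGATGNAA), EGR (GCGNGGGCG), the CArG box of SRF and the TATA box (TATAAA). The stretches below show the matches found for GDF15, GADD45B, PLK2 and PLK3, whose levels differed between groups, and for MDM2 and SESN1, p53 targets that differed little or did not pass the test. The match is in capitals, and each is written 5′ to 3′ on the strand of the gene. Positions are counted from the transcription start, the base before it being -1.
GDF15: aagtccggggacTATAAAggccggtccggc
GADD45B: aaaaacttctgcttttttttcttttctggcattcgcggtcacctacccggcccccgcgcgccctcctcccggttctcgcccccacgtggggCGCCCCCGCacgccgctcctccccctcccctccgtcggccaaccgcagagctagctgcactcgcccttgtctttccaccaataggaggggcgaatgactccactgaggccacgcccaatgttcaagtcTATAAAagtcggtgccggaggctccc
PLK2: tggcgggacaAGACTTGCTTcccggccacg
PLK3: gagcttctgggTGATGTAAggccgggaatg
MDM2: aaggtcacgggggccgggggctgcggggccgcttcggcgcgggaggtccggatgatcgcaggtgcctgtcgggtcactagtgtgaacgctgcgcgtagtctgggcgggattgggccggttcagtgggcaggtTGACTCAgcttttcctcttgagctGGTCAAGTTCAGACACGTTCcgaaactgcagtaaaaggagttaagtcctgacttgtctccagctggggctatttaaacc
SESN1: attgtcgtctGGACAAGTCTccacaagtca
The GDF15 stretch (chr19:18386117-18386146, plus strand, bases -41 to -12) holds a TATA box. The GADD45B stretch (chr19:2475877-2476121, plus strand, bases -250 to -6) holds an EGR match on the other strand, at -159 to -151, and a TATA box at -31 to -26. PLK2 (chr5:58460199-58460228, minus strand, bases -142 to -113) and SESN1 (chr6:109009018-109009047, minus strand, bases -59 to -30) each hold 1 p53 decamer. The PLK3 stretch (chr1:44800233-44800262, plus strand, bases -144 to -115) holds an ATF4-C/EBP composite. The MDM2 stretch (chr12:68808767-68809001, plus strand, bases -250 to -16) lies before a start inside the gene and holds an AP-1 match at -118 to -112 and a p53 pair at -94 to -75. The starts used for the other stretches also lie inside the annotated gene. Those of SESN1 and GDF15 lie farthest from the upstream end of the gene.

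Among all 35116 windows of this length in the table, a p53 decamer was present in 5.57%, a p53 pair in 0.14%, AP-1 in 6.57%, the ATF4-C/EBP composite in 3.14%, EGR in 8.41% and a TATA box in 10.7%. CRE was present in 1.65%, the CRE core in 21.2% and the CArG box in 1.16%. CRE cores were also found before the PLK2 start and before a second SESN1 start. The windows of CDKN1A and TP53I3 held none of these letters, nor did those before the outermost SESN1 start and the more upstream MDM2 starts. This says nothing about sites elsewhere. These matches describe the DNA letters, and binding of a factor was not measured.

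In the vehicle, GDF15 had by far the highest level of the 10 genes. Per kilobase of union exon length it stood at 322 ± 15 CPM (SD, n = 3), followed by CDKN1A at 49.1 ± 4.30 CPM per kb. GADD45A (14.7 ± 0.418), GADD45B (12.9 ± 1.28) and MDM2 (7.14 ± 0.380) came next on this scale. PLK3 (4.55 ± 0.633 CPM per kb) and TP53INP1 (4.02 ± 0.154) did not differ beyond their SDs, nor did PLK2 (1.86 ± 0.371) and SESN1 (1.84 ± 0.0928), and TP53I3 was lowest at 0.881 ± 0.127. With KB02 the top of the order was GADD45B at 113 ± 16.7 CPM per kb, GDF15 at 94.5 ± 6.90 and CDKN1A at 76.6 ± 1.44, where GADD45B and GDF15 did not differ beyond their SDs. With KB05 GDF15 again led at 522 ± 36.0 CPM per kb, before CDKN1A at 89.5 ± 1.55, GADD45B at 61.8 ± 2.89 and GADD45A at 39.8 ± 0.815.

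**Figure D1:**
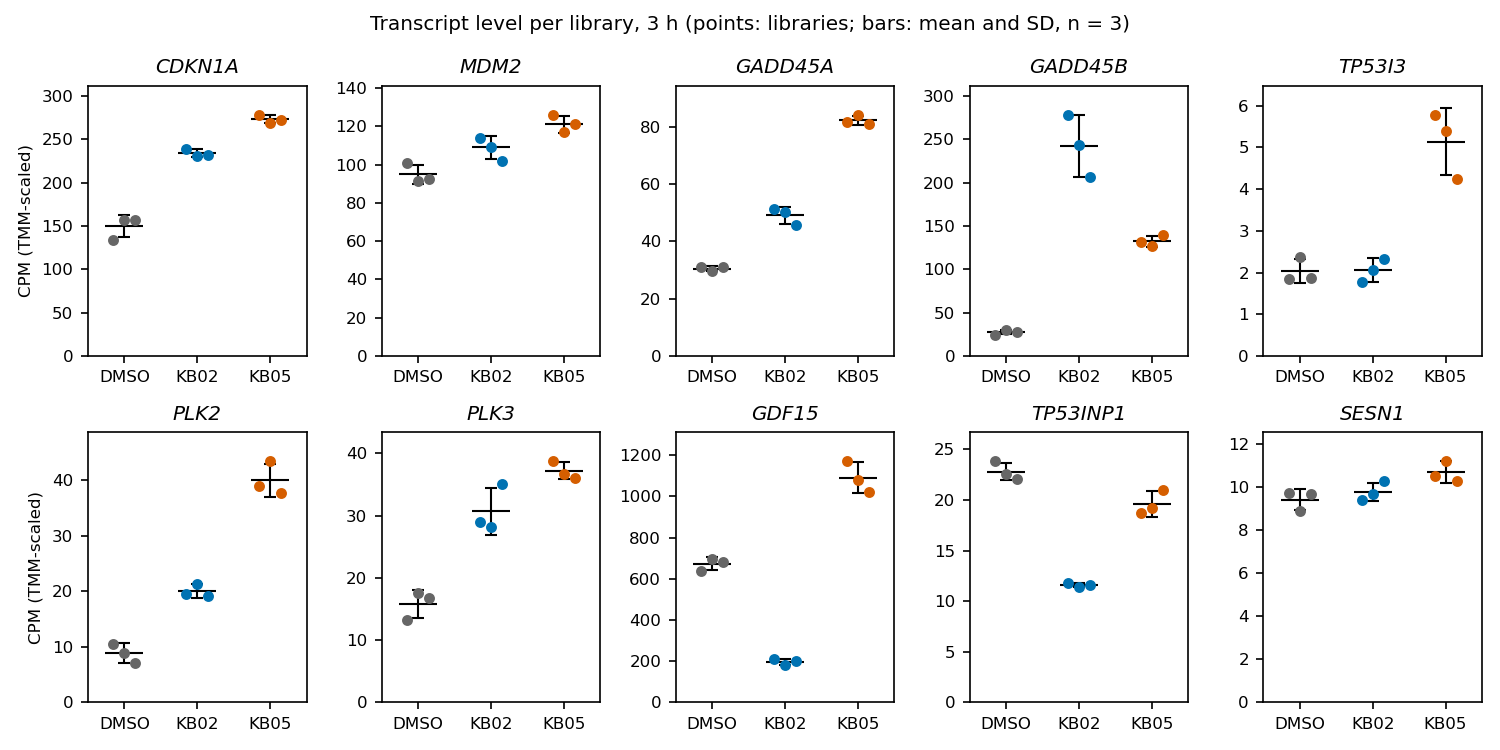
Transcript level of each gene in each library, in TMM-scaled CPM on a linear axis from 0, with 1 panel per gene. Points are libraries of DMSO, KB02 and KB05, and black bars are the mean and SD of 3. GDF15 and TP53INP1 are lowest with KB02, GADD45B is highest with KB02, and PLK2 and GADD45A step up from DMSO to KB02 to KB05.

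Against DMSO, 6 of the 10 genes rose with KB02, 2 fell and the other two did not pass the test. With KB05, 8 of 10 rose and the other two did not pass. As background, 46.1% of all genes tested were called with KB02 (22.8% higher and 23.3% lower) and 39.8% with KB05 (18.7% higher and 21.1% lower). The median log2 fold change of the 10 genes was 0.42 with KB02 and 1.05 with KB05, beside 0.00 and -0.00 over all genes tested. Both comparisons use the same 3 DMSO libraries, so they are not independent of each other. With library sizes alone in place of TMM scaling, the median of all genes with KB02 moved to 0.13 and the share of calls that were higher went from 49.5% to 63.8%, while the counts for the 10 genes stayed at 6 higher and 2 lower. All calls are from edgeR's quasi-likelihood test over all genes tested, at a Benjamini-Hochberg adjusted p under 0.05, and log2 fold changes are given ± SE. The p-values measure the spread between these libraries of 1 line.

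**Figure D2:**
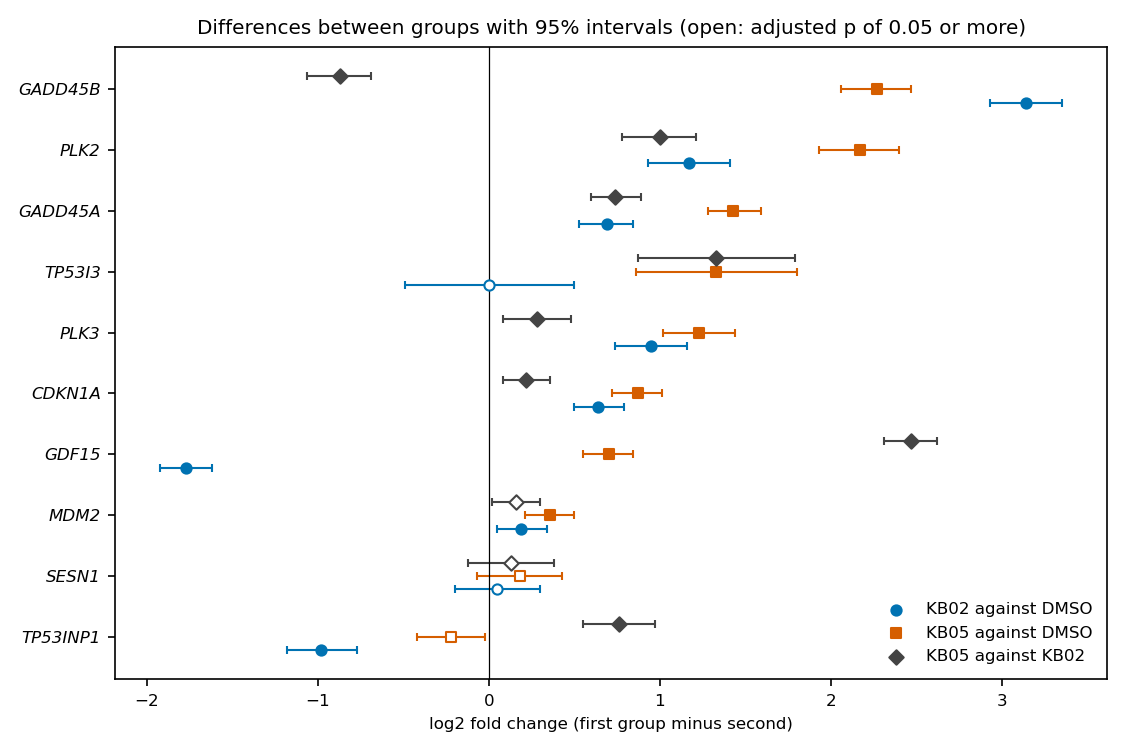
Log2 fold change of each gene in 3 comparisons with 95% intervals, sorted by the KB05 against DMSO value. Filled symbols passed the test and open symbols did not, and GDF15 is the gene whose KB02 and KB05 values lie on opposite sides of 0 with both filled.

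GDF15 moved in opposite directions with the compounds: it fell with KB02 and rose with KB05. The gene (ENSG00000130513.6, chr19:18374731-18389176, plus strand) had 638, 698 and 683 CPM in the DMSO libraries. With KB02 the libraries had 210, 182 and 200 CPM, and with KB05 1170, 1080 and 1020 CPM. The 3 groups did not overlap, every KB02 library lying below every DMSO library and every KB05 library above. The mean was 673 ± 31.3 CPM in DMSO, 197 ± 14.4 with KB02 and 1090 ± 75.0 with KB05 (SD, n = 3). Against DMSO, KB02 lowered it 3.41-fold (log2 fold change -1.77 ± 0.07, adjusted p = 4.68e-18, edgeR) and KB05 raised it 1.62-fold (0.70 ± 0.07, adjusted p = 4.82e-09). This was the 157th largest fall among 18379 genes with KB02 and the 1897th largest rise with KB05. Measured directly between the compounds, GDF15 was 5.53-fold higher with KB05 than with KB02 (2.47 ± 0.08, adjusted p = 5.32e-21), the 115th largest difference in that direction. Across all alternative settings, including each library left out in turn, the KB02 value lay between -1.81 and -1.64, the KB05 value between 0.64 and 0.74 and their difference between 2.35 and 2.52. A microRNA gene, MIR3189, lies within the GDF15 gene without sharing exon bases and was listed at 0 in every library. Reads of GFRAL, the GDF15 receptor, came to 0, 2 and 3 counts over the DMSO, KB02 and KB05 libraries.

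CDKN1A encodes p21, the cyclin-dependent kinase inhibitor through which p53 arrests cells before S phase, and its transcript rose with both compounds. CDKN1A (ENSG00000124762.14, chr6:36676460-36687339, plus strand) had 134, 157 and 157 CPM in DMSO, 239, 231 and 232 CPM with KB02 and 278, 269 and 272 CPM with KB05. No library of one group overlapped another group. The rise was 1.56-fold with KB02 (0.64 ± 0.07, adjusted p = 3.83e-09, edgeR) and 1.82-fold with KB05 (0.87 ± 0.07, adjusted p = 2.85e-11). The direct difference was 1.17-fold (0.22 ± 0.07, adjusted p = 0.0101), but it lost the call with library size alone (0.11, adjusted p = 0.207) and without DMSO replicate 2 (0.0554), KB02 replicate 1 (0.0621) or KB02 replicate 2 (0.114). An antisense transcript, DINOL, shares 146 exon bases with CDKN1A and averaged 0.0785 to 0.284 CPM over the groups.

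GADD45A and GADD45B encode small stress sensor proteins that bind p38-pathway kinases, PCNA and p21, and both transcripts rose with both compounds but in a different order. GADD45A (ENSG00000116717.13, chr1:67685061-67688338, plus strand) had 31.0, 29.5 and 31.0 CPM in DMSO, 51.4, 50.2 and 45.6 CPM with KB02 and 81.6, 84.2 and 81.1 CPM with KB05. The groups did not overlap, and KB05 was highest in every library. The rise was 1.61-fold with KB02 (0.69 ± 0.08, adjusted p = 5.94e-09, edgeR) and 2.70-fold with KB05 (1.43 ± 0.08, adjusted p = 1.35e-15), and KB05 exceeded KB02 by 1.68-fold (0.74 ± 0.07, adjusted p = 9.82e-10). GADD45B (ENSG00000099860.9, chr19:2476122-2478259, plus strand) had 24.6, 30 and 27.9 CPM in DMSO, 278, 243 and 206 CPM with KB02 and 131, 127 and 139 CPM with KB05. Here every KB02 library lay above every KB05 library, and the KB02 libraries spread more widely (242 ± 35.7 CPM) than the KB05 libraries (132 ± 6.18 CPM). GADD45B rose 8.82-fold with KB02 (3.14 ± 0.10, adjusted p = 5.93e-16) and 4.81-fold with KB05 (2.27 ± 0.10, adjusted p = 2.27e-13), the 130th and 247th largest rises of all genes tested. The level with KB05 was 1.83-fold lower than with KB02 (-0.87 ± 0.09, adjusted p = 9.82e-08), the one member lower with KB05 in the direct comparison.

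PLK2 and PLK3 encode polo-like kinases with roles in stress responses and checkpoints, unlike the mitotic kinase PLK1. PLK2 (ENSG00000145632.15, chr5:58453982-58460260, minus strand) had 10.6, 8.93 and 7.05 CPM in DMSO, 19.5, 21.4 and 19.1 CPM with KB02 and 38.9, 43.4 and 37.7 CPM with KB05. Its 3 groups formed separate steps. It rose 2.25-fold with KB02 (1.17 ± 0.12, adjusted p = 6.72e-10, edgeR) and 4.49-fold with KB05 (2.17 ± 0.11, adjusted p = 1.32e-15), with 2.00-fold between the compounds (1.00 ± 0.10, adjusted p = 3.63e-09). PLK3 (ENSG00000173846.13, chr1:44800225-44805990, plus strand) had 13.3, 17.5 and 16.7 CPM in DMSO, 29, 28.1 and 35.0 CPM with KB02 and 38.7, 36.7 and 36.1 CPM with KB05. DMSO lay apart from both compounds, and the lowest KB05 library was close to the highest KB02 library. It rose 1.93-fold with KB02 (0.95 ± 0.10, adjusted p = 4.31e-09) and 2.35-fold with KB05 (1.23 ± 0.10, adjusted p = 7.38e-11). The difference between the compounds was 1.21-fold (0.28 ± 0.10, adjusted p = 0.0218) and lost the call with library size alone (0.17, adjusted p = 0.199), with DESeq2 (adjusted p = 0.1) and without DMSO replicate 2 (0.0604), KB02 replicate 1 (0.197), KB02 replicate 2 (0.245) or KB05 replicate 1 (0.0879). TCTEX1D4 shares 78 exon bases with PLK3 on the other strand and averaged 0.501 to 0.828 CPM.

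MDM2, the ubiquitin ligase that p53 induces and that in turn degrades p53, rose by little. The gene (ENSG00000135679.25, chr12:68808176-68850686, plus strand) had 101, 91.6 and 92.4 CPM in DMSO, 114, 109 and 102 CPM with KB02 and 126, 117 and 121 CPM with KB05. The groups did not overlap, but the highest DMSO and the lowest KB02 library were nearly equal. The rise was 1.28-fold with KB05 (0.36 ± 0.07, adjusted p = 1.27e-04, edgeR) and 1.14-fold with KB02 (0.19 ± 0.07, adjusted p = 0.0219). The KB02 call was lost with no filter on low counts (adjusted p = 0.0583) and without DMSO replicate 3 (0.0799). KB05 and KB02 differed by 0.16 ± 0.07 (95% interval 0.02 to 0.30, adjusted p = 0.0635), which did not pass. The pseudogene AC025423.2 on the same strand shares 439 exon bases with MDM2, the antisense gene AC025423.4 shares 785 and the gene CPM on the other strand shares 133, all 3 at group means of 0.996 to 2.59 CPM.

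TP53I3, a quinone oxidoreductase used as a marker of p53 activity toward cell death, was scarce and rose with KB05. The gene (ENSG00000115129.14, chr2:24077433-24085861, minus strand) had 1.85, 2.38 and 1.88 CPM in DMSO, 1.77, 2.07 and 2.33 CPM with KB02 and 5.78, 5.40 and 4.25 CPM with KB05. The DMSO and KB02 libraries were interleaved, and all KB05 libraries lay above both. With KB05 it was 2.52-fold above DMSO (1.33 ± 0.23, adjusted p = 2.20e-05, edgeR) and 2.51-fold above KB02 (1.33 ± 0.22, adjusted p = 1.55e-05). Between KB02 and DMSO the difference was 0.00 ± 0.24 with a 95% interval of -0.49 to 0.50 (adjusted p = 0.994). FAM228B, which shares 80 exon bases with TP53I3 on the other strand, averaged 2.51 CPM in DMSO, 3.49 with KB02 and 3.43 with KB05, a level like that of TP53I3, so the TP53I3 values are uncertain, the strand setting of the counting being not given in the sources used here.

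SESN1, a sestrin that restrains mTORC1 and oxidant damage, passed no test. SESN1 (ENSG00000080546.13, chr6:108986437-109094819, minus strand) had 9.74, 8.88 and 9.67 CPM in DMSO, 9.40, 9.68 and 10.3 CPM with KB02 and 10.5, 11.2 and 10.3 CPM with KB05. The KB02 libraries overlapped DMSO, while those of KB05 lay just above. The difference was 0.05 ± 0.12 with KB02 (95% interval -0.20 to 0.30, adjusted p = 0.768, edgeR) and 0.18 ± 0.12 with KB05 (95% interval -0.07 to 0.43, adjusted p = 0.267). Its paralog SESN2, also a target of ATF4, had 32.0 ± 0.448 CPM in DMSO, 163 ± 7.76 with KB02 and 106 ± 9.30 with KB05. SESN2 rose 5.08-fold with KB02 (2.35 ± 0.08, adjusted p = 5.62e-21) and 3.32-fold with KB05 (1.73 ± 0.08, adjusted p = 1.42e-17).

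TP53INP1, a nuclear protein that cooperates with p53 and also takes part in autophagy, fell with KB02. Its gene (ENSG00000164938.14, minus strand) had 23.8, 22.6 and 22.1 CPM in DMSO, 11.8, 11.4 and 11.6 CPM with KB02 and 18.7, 19.2 and 21.0 CPM with KB05. All KB02 libraries lay far below the rest, with a spread of only 0.187 CPM (SD, n = 3). The fall was 1.97-fold (-0.98 ± 0.10, adjusted p = 1.16e-09, edgeR). With KB05 the libraries also lay below DMSO without overlap, but the difference of -0.22 ± 0.10 (95% interval -0.42 to -0.02) did not pass the test (adjusted p = 0.0753, and 0.0565 to 0.205 over the alternatives). KB05 was 1.70-fold above KB02 (0.76 ± 0.10, adjusted p = 3.17e-07). Its paralog TP53INP2 differed from DMSO by 0.05 ± 0.09 with KB02 and -0.09 ± 0.09 with KB05 and was not called.

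Between the compounds at matched dose and time, 7 of the 10 genes were higher with KB05, GADD45B was lower and the other two, MDM2 and SESN1, did not pass. Of all genes tested, 40.0% were called in this comparison, 21.8% higher and 18.2% lower. With library size alone, the share of all calls that were higher went from 54.4% to 37.4%, and 5 of the 10 genes were then higher and 1 lower. The median over the 10 genes was 0.51 beside 0.06 for all genes. Libraries of the compared groups did not overlap for 6 genes upward and 2 downward with KB02, where 53.5% of all genes tested were separated in either direction. With KB05 the corresponding counts were 9 upward and 1 downward against 49.2%, and between the compounds 9 and 1 against 50.3%.

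**Figure D3:**
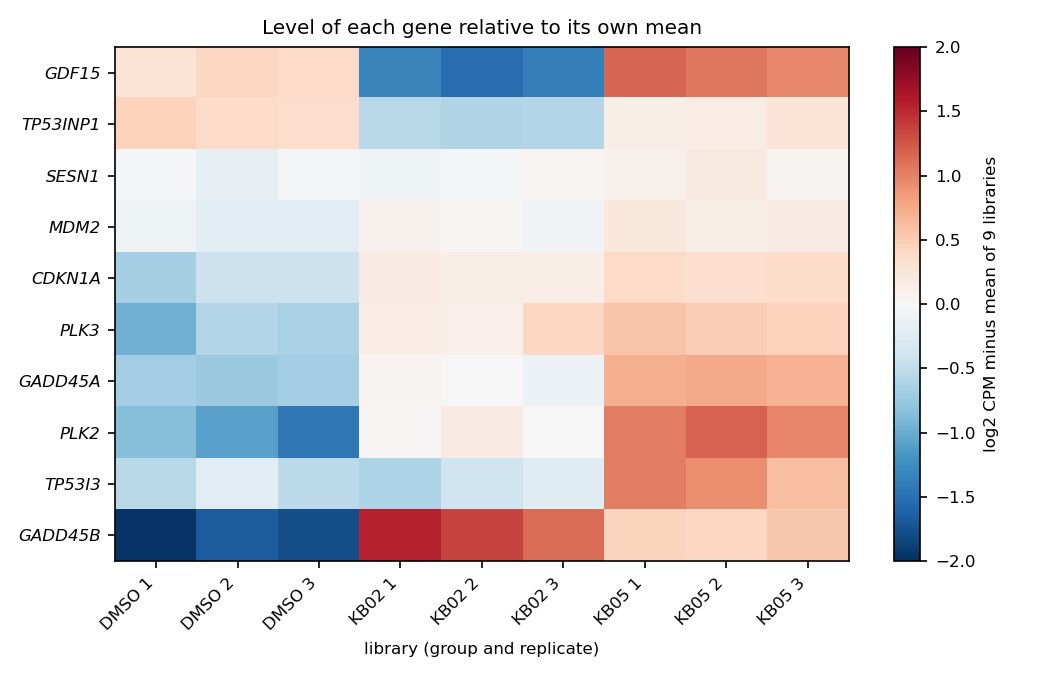
Log2 CPM of each gene minus its own mean over the 9 libraries, by library, with blue below and red above that mean and the colour scale ending at -2 and 2. The columns form blocks of 3 libraries by group, and the GDF15 and GADD45B rows are of opposite colour in the DMSO and KB02 blocks.

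The members were compared by the root mean square difference of their centred log2 CPM over the 9 libraries. A small value means changes alike in direction and size. The levels were centred but not scaled, so genes that both changed little, such as MDM2 and SESN1, also come out close. MDM2 and SESN1 were closest (0.118), followed by CDKN1A and PLK3 (0.186), and GADD45B and GDF15 were farthest apart (2.05). Each member was also compared with 12191 other genes that were protein-coding, had a symbol and reached a mean log2 CPM of 1. The 3 nearest to GDF15 were EDN1 (0.161), which encodes the vasoconstrictor endothelin-1, PCDH1 (0.186), a protocadherin, and MYADM (0.21), a membrane protein. EDN1 had a log2 fold change of -1.82 with KB02 and 0.57 with KB05. The gene nearest to GADD45B was SERTAD1 (0.0852), nearest to PLK2 was DUSP6 (0.175), a phosphatase of ERK, and nearest to GADD45A was TSC22D1 (0.0996), with its paralog GADD45G in the third place (0.114). Nearest to CDKN1A was SRRM3 (0.0784), to MDM2 RBM47 (0.0466), to PLK3 INO80B (0.104) and to TP53I3 NKX2-8 (0.142). FAM8A1 was nearest to TP53INP1 (0.0476) and KCTD13 to SESN1 (0.0386). These distances are descriptions over libraries that share their groups, and they were not tested.

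Relatives of the members, with the binding partner GADD45GIP1 and the receptor GFRAL, were read from a list of 12, of which 10 were tested. SESN2 is counted here and also among the other p53 targets below, and MDM4 also among the upstream genes below. With KB02, 5 of the 10 rose and 1 fell, beside 22.8% and 23.3% of all genes tested. With KB05, 4 rose and 1 fell, beside 18.7% and 21.1%. GADD45G, the third GADD45 protein, had 41.4 ± 2.07 CPM in DMSO, 71.7 ± 6.42 with KB02 and 112 ± 10.6 with KB05, a rise of 0.79 ± 0.08 and 1.43 ± 0.08 on the log2 scale (adjusted p = 1.27e-09 and 7.39e-15, edgeR). CDKN1C (p57) rose by 0.52 ± 0.12 with KB02 and 0.88 ± 0.12 with KB05, while CDKN1B (p27) fell with KB02 from 200 ± 6.21 to 147 ± 12.6 CPM (-0.45 ± 0.07, adjusted p = 4.13e-06) and stood at 221 ± 9.18 CPM with KB05 (0.14 ± 0.07, adjusted p = 0.117). PLK4, the kinase of centriole duplication, fell with KB05 from 25.8 ± 1.57 to 16.3 ± 1.96 CPM (-0.66 ± 0.10, adjusted p = 5.68e-06), and with KB02 it differed by -0.01 ± 0.10. PLK1 differed by 0.16 ± 0.08 with KB02 and -0.05 ± 0.08 with KB05 and was not called against DMSO. SESN3 rose with KB02 (0.52 ± 0.14, adjusted p = 0.00267) and differed by 0.05 ± 0.15 with KB05. GADD45GIP1, a mitochondrial ribosome protein that binds GADD45 proteins, rose by 0.33 ± 0.08 and 0.58 ± 0.08. MDM4, the partner of MDM2, differed by 0.11 ± 0.08 with KB02 and -0.01 ± 0.08 with KB05 and was not called. PLK5 and GFRAL had too few reads to be tested.

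Beyond the members, 42 other textbook p53 targets were read, of which 41 were tested (TNFRSF10C had too few reads). With KB02 16 rose (39.0%), 6 fell (14.6%) and 19 did not pass, and with KB05 16 rose (39.0%), 3 fell (7.32%) and 22 did not pass. The list's median log2 fold change was 0.07 with KB02 and 0.15 with KB05. Over all genes tested, 22.8% were called higher and 23.3% lower with KB02, and 18.7% higher and 21.1% lower with KB05. The list was chosen with earlier results of these data known, so its gap to all genes is a description only. The targets that were not called included BAX, a pore-forming protein of apoptosis (0.01 ± 0.07 with KB02 and 0.11 ± 0.08 with KB05). TNFRSF10B, a death receptor, was another (-0.01 ± 0.07 and 0.04 ± 0.07). Targets called higher with both compounds included BBC3 (1.11 ± 0.13 and 1.61 ± 0.13), PPM1D (1.14 ± 0.10 and 0.93 ± 0.10) and BTG2 (0.93 ± 0.13 and 1.27 ± 0.13). These genes were picked after their values were seen and do not stand for the list. The 4 largest rises were the same genes with both compounds. SERTAD1, a regulator of CDK4, went from 34.5 ± 4.08 CPM to 307 ± 31.9 with KB02 (3.15 ± 0.09, adjusted p = 5.50e-22, edgeR) and 178 ± 1.35 with KB05 (2.37 ± 0.09, adjusted p = 3.33e-19). PMAIP1, which encodes the pro-apoptotic BH3-only protein NOXA, went from 10.5 ± 0.973 CPM to 45 ± 7.48 and 38.6 ± 1.5. IER5, an immediate early gene, went from 34.6 ± 2.94 CPM to 139 ± 8.03 and 136 ± 16.1, and SESN2 was the other.

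The falls in that list were fewer. PERP, a desmosome and apoptosis protein, fell with KB02 from 245 ± 53.6 to 99.5 ± 4.45 CPM (-1.30 ± 0.13, adjusted p = 8.91e-06, edgeR) and stood at 215 ± 7.83 CPM with KB05 (adjusted p = 0.264). STEAP3, a metalloreductase, fell with KB02 (-1.13 ± 0.12, adjusted p = 2.14e-09) and with KB05 (-0.49 ± 0.12, adjusted p = 0.00111). FAS, a death receptor, fell with KB02 from 11.7 ± 2.08 to 6.16 ± 1.10 CPM (-0.92 ± 0.15, adjusted p = 4.25e-06) and stood at 11.3 ± 0.234 CPM with KB05. FAM210B, a mitochondrial protein, fell with KB02 (-0.64 ± 0.13, adjusted p = 1.38e-04) and with KB05 (-0.42 ± 0.13, adjusted p = 0.01), the latter lost without KB05 replicate 2 (adjusted p = 0.0972). ZMAT3, an RNA-binding protein, fell with KB05 (-0.38 ± 0.14, adjusted p = 0.0308), a call lost with DESeq2 (adjusted p = 0.0627) and without DMSO replicate 2 (0.0898), DMSO replicate 3 (0.119) or KB05 replicate 1 (0.172). Measured between the compounds, PERP (1.11 ± 0.13, adjusted p = 4.37e-05) and FAS (0.87 ± 0.15, adjusted p = 1.59e-05) were higher with KB05.

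**Figure D4:**
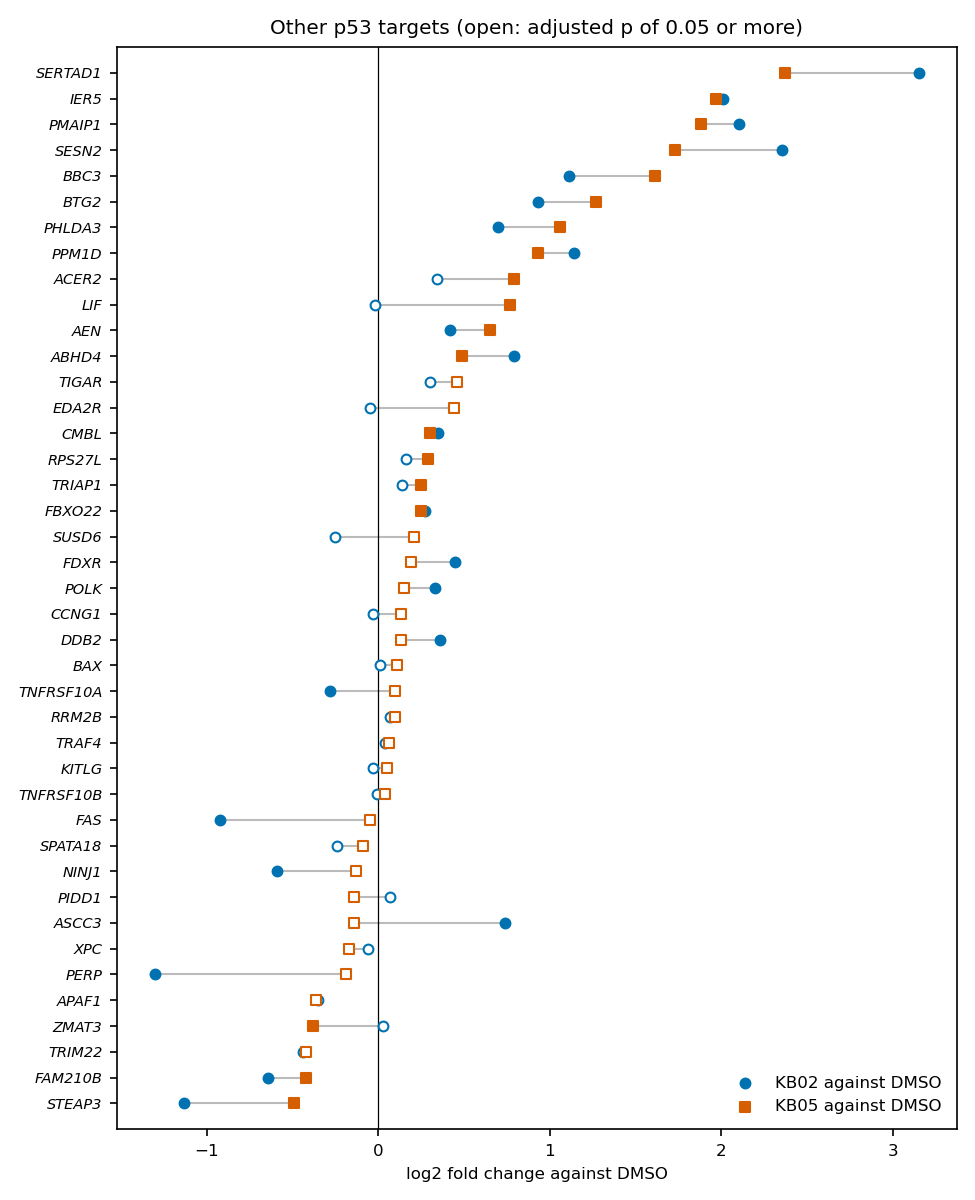
Log2 fold change against DMSO of the 41 other p53 targets tested, with KB02 as circles and KB05 as squares joined by a line per gene, filled where the test was passed. SERTAD1, SESN2, PMAIP1 and IER5 lie at the right end with both compounds, and PERP and FAS have the KB02 symbol well to the left of the KB05 symbol.

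Of 13 genes that act on the pathway upstream or are relatives of its central factor, 12 were tested (TP63 had too few reads). With KB02 5 of the 12 rose (41.7%) and 1 fell (8.33%), beside 22.8% and 23.3% of all genes tested. With KB05 1 rose (8.33%) and 3 fell (25%), beside 18.7% and 21.1% (edgeR). The kinase ATM, which signals DNA breaks, rose with KB02 (0.46 ± 0.10, adjusted p = 3.02e-04) and differed by -0.15 ± 0.10 with KB05. ATR, the kinase of replication stress, stood at 20.8 ± 2.23 CPM in DMSO, 26.1 ± 0.334 with KB02 and 11.8 ± 1.18 with KB05. It fell 1.76-fold with KB05 (-0.81 ± 0.11, adjusted p = 3.88e-07), and its rise with KB02 (0.33 ± 0.10, adjusted p = 0.00707) was lost without DMSO replicate 1 (adjusted p = 0.0517). USP7, a deubiquitinase of MDM2 and p53, fell with KB05 (-0.29 ± 0.07, adjusted p = 0.00134). TP53BP1, a chromatin reader at DNA breaks, rose with KB02 (0.36 ± 0.08, adjusted p = 2.03e-04). The remaining calls were small, and each was lost under at least 1 alternative. CHEK1, a checkpoint kinase, was at -0.27 with KB02, lost with library size alone (adjusted p = 0.239) and without DMSO replicate 2 (0.0514) or KB02 replicate 1 (0.157). RPL11, a ribosomal protein that binds MDM2, was at 0.33 with KB02, lost without DMSO replicate 1 (0.162) or KB02 replicate 3 (0.0713). With KB05 it was at 0.34, lost with DESeq2 (0.055) and without DMSO replicate 1 (0.153), DMSO replicate 2 (0.0583) or KB05 replicate 3 (0.0788). CDKN2A, whose ARF product binds MDM2, was at 0.18 with KB02, lost with no filter (0.0971), in a fit of the compared groups alone (0.0567) and without DMSO replicate 1 or 3, KB02 replicate 1 or 3 or KB05 replicate 2 or 3 (0.0561 to 0.152). TP53BP1 was at -0.19 with KB05, lost in 3 other settings of scaling or filter (0.0821 to 0.0998), in a fit of the compared groups alone (0.0693) and without DMSO replicate 2 or 3, KB02 replicate 1 or 2 or any 1 of the KB05 replicates (0.0501 to 0.168). MDM4, HIPK2, CHEK2, RPL5 and TP73 were not called against DMSO. Between the compounds, the log2 fold change of KB05 against KB02 was -0.61 for ATM, -1.15 for ATR and -0.55 for TP53BP1, all 3 called lower, and the other 9 did not pass. The 3 are 25% of the 12 tested, beside 18.2% of all genes tested that were lower in this comparison and 21.8% higher.

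Transcription factors known to act on some of the members without p53 were read from a list of 7. With each compound 4 of the 7 rose and 2 fell, where 46.1% of all genes tested were called in either direction with KB02 and 39.8% with KB05. ATF4, the translation-controlled factor of the integrated stress response, had 426 ± 17.1 CPM in DMSO, 911 ± 51.8 with KB02 and 659 ± 10.9 with KB05. DDIT3, which encodes CHOP, had 61.7 ± 1.29, 384 ± 34.7 and 577 ± 16.1 CPM, and ATF3 had 45.3 ± 4.03, 290 ± 13.9 and 468 ± 11.1 CPM in the same order. EGR1, an immediate early zinc-finger factor, had 56.5 ± 11.6, 906 ± 37.0 and 1680 ± 138 CPM. Each of these 4 rose with both compounds (log2 fold changes of 1.09 to 4.01 with KB02 and 0.63 to 4.89 with KB05). DDIT3, ATF3 and EGR1 were higher with KB05 than with KB02 (0.59 ± 0.07, 0.69 ± 0.07 and 0.89 ± 0.12) and ATF4 was lower (-0.47 ± 0.07). MYC fell with KB02 (-2.63 ± 0.08, adjusted p = 3.02e-21, edgeR) and with KB05 (-1.88 ± 0.08, adjusted p = 7.87e-18). HIF1A also fell with both (-0.33 ± 0.10 and -0.32 ± 0.10), and SP1 was not called against DMSO. The HIF1A call with KB02 was lost with library size alone (adjusted p = 0.154) and without DMSO replicate 1 (0.0662) or KB02 replicate 3 (0.0508), and that with KB05 without DMSO replicate 1 (0.0839) or KB05 replicate 3 (0.0922). GDF15 thus fell with KB02 in libraries in which transcripts of ATF4, DDIT3, ATF3 and EGR1 rose. Transcript level is not protein activity, and the part of any of these factors in the members' levels was not tested.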

How the data were processed

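The authors deposited estimated counts per gene for 9 libraries of 22Rv1 cells, unscaled. The submitters' processing notes name Salmon 1.3.0, DESeq2 1.30.1 and the builds hg38 and GRCh38.p13. Annotation release and strand setting were both not given in the sources used here. Salmon splits reads of overlapping genes by a model. Values were rounded (20.3% to 24.3% of them per library were not whole). Of 60232 identifiers, 60064 matched the name table and 41714 had a symbol. Gene positions, exon overlaps and lengths are from GENCODE 29 on GRCh38.

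Tests used edgeR 4.0.16 in R 4.3.3: filterByExpr (minimum count 10), TMM factors, and 1 robust quasi-likelihood fit of the 3 groups, with Benjamini-Hochberg adjustment over 18379 genes and a threshold of 0.05. The SE was derived from the log2 fold change and its F statistic. The code was tested on simulated data. Replicate pairs differed by a chi-square per degree of freedom of 4.43 to 10.6, so all 9 libraries were counted.

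All 10 members are named, as are all genes of lists of up to 14 genes and, from the 42 other p53 targets, the 4 largest called rises and falls against DMSO. BAX, TNFRSF10B, BBC3, PPM1D and BTG2 were named outside that rule, after their values were seen. Likeness used log2 CPM with a prior count of 2. 1 gene considered for these lists is not reported here. The members and lists were chosen with earlier results of these data known. Alternatives were other scaling factors, no filter, DESeq2 1.42.0, fits of 2 groups, the replicate number as a block, and each library left out in turn.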

Additional observations from a re-analysis of the deposited data

How the results depend on the processing

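The number of members called ranged over all alternatives from 7 to 8 for KB02 against DMSO, was 8 under each for KB05 against DMSO, and ranged from 6 to 9 for KB05 against KB02. The number of other p53 targets called ranged from 20 to 25, from 15 to 20 and from 14 to 21. Lost calls of the members, and of the other named genes against DMSO, are given beside those genes. Why they were lost was not tested. BBC3, PPM1D and BTG2 were not followed singly over the alternatives. TP53I3 with KB02, never called, changed sign with no filter (-0.01) and ranged from -0.09 to 0.18 with 1 library left out, being -0.07 without DMSO replicate 1, -0.05 without DMSO replicate 3, -0.09 without KB02 replicate 3 and -0.00 without KB05 replicate 2 or 3. Of 480 comparisons of a member's value under an alternative, 460 kept direction and side of the threshold, 12 lost the call, 2 gained it and 6 changed sign.

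Whether the replicate numbers pair the libraries is unclear. Deviations of same-numbered libraries correlated at only -0.04 to 0.08 over 9 pairs. Even so, 7 of 9 libraries correlated best, among libraries of other groups, with their own number. With the replicate number as a block, the members called were 8, 8 and 9 in the 3 comparisons. The block added MDM2 in KB05 against KB02 (0.16, adjusted p = 0.0411), as did leaving out DMSO replicate 1 (0.0357), and changed no other member's call. Depth limits TP53I3 most. With 3 libraries per group in 1 line at 1 time, later changes and protein levels were not measured.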
